A study of Mus musculus with 24 samples.

Results

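JQ1, a small molecule that displaces BET bromodomain proteins from acetylated chromatin, was compared at 500 nM and at 50 nM in mouse T helper cells treated for 6 hr. The comparison rests on 8 of the 24 arrays of the study, 4 at each dose, chosen from the sample labels as every JQ1 array at 6 hr. The cells were Th1 and Th2 cells, each unstimulated and each reactivated, which gives 4 contexts with 1 array per dose in each. All cells came from female C57BL/6 mice and had been differentiated in vitro from naive CD4+ T cells. No genotype other than the strain was labelled, and the agent used for reactivation, the age of the mice and the number of animals behind a sample were not given in the sources used here. Each array carried sample RNA labelled with Cy3 against Cy5-labelled RNA of naive CD4+CD62L+CD25-CD44lo T cells from lymph nodes and spleens, a common reference that had received no JQ1, and the dyes were not swapped. Levels are therefore log2 ratios of sample to naive cells, and a dose effect is the difference between 2 such ratios, 500 nM minus 50 nM. With 1 array per condition, the 4 contexts stood in for replicates, so that the error of a dose effect is its spread between contexts and not between cultures. No vehicle array entered the comparison. The 6 hr DMSO arrays of Th1 cells are given beside some levels as a description, and the DMSO arrays of Th2 cells were left out because their labels conflict on the time.

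BET proteins, among them Brd2, Brd3 and the testis form Brdt, bind acetylated histone tails at promoters and enhancers. P-TEFb, the kinase complex of Cdk9 and cyclin T, releases paused RNA polymerase II into elongation. A large part of the cell's P-TEFb is held inactive on the 7SK RNA by Hexim1, with Larp7 and Mepce as partners of that RNA. In T cells, genes for effector cytokines and their receptors carry large enhancers that bind BET proteins and P-TEFb, and the study asked how far Th1 and Th2 genes depend on these factors.

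Promoter sequences of 5 genes on which the results below turn are shown, because several histone genes rose, Hexim1 rose most among the genes of P-TEFb and Ltb was among the largest falls. Each is the 250 bases before the start given by RefSeq for assembly GRCm38.p6, read 5′ to 3′. Capitals mark matches on either strand to the TATA box (letters TATANA), the CCAAT box (CCAAT) and the octamer (ATTTGCAT) in the first 4, and to the NF-kB consensus in Ltb, and TATA matches can overlap each other.
H1f2 (chr13:23738557-23738806, + strand): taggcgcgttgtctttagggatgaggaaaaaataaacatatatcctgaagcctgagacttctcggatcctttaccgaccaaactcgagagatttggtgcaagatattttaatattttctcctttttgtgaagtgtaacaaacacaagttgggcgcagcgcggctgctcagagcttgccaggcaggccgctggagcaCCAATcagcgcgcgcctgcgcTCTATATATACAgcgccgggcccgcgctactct
H2aw (chr11:58954435-58954684, + strand): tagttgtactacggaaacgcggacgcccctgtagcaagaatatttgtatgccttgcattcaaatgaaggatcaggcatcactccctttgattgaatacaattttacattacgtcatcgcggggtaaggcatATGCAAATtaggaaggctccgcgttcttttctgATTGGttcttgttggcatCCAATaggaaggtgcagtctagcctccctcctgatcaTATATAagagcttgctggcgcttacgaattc
H2ac18 (chr3:96245247-96245496, + strand): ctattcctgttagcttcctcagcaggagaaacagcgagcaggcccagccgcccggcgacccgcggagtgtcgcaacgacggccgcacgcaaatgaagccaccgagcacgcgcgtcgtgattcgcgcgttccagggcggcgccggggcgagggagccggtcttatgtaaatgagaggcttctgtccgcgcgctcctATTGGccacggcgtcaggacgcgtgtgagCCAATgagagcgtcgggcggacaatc
Hexim1 (chr11:103116075-103116324, + strand): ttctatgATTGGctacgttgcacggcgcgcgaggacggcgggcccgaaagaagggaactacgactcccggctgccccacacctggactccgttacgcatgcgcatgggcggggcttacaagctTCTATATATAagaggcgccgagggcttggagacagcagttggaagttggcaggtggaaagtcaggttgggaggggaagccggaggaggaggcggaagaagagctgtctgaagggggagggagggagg
Ltb (chr17:35194257-35194506, + strand): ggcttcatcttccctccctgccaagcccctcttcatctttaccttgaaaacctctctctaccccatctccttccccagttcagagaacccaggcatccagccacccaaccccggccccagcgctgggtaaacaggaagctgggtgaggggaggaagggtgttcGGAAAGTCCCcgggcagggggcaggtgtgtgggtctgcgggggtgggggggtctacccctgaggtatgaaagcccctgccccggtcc
H1f2 had a CCAAT match 54 bases and TATA matches 33 to 27 bases before the start, and H2aw had CCAAT at 86 and 68, TATA at 31 and an octamer at 119 bases. H2ac18 had CCAAT at 55 and 26 bases and no TATA match in this window. The TATA matches of Hexim1 lay 127 to 123 bases before its annotated start, and the NF-kB match of Ltb lay at 87. Over the same window, 22.6% of 32851 promoters in the RefSeq table held a TATA match, 33.8% a CCAAT match, 1.6% an octamer and 7.25% an NF-kB match. These are matches of letters and not measured binding.

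A gene was tested where its Cy3 signal passed the scanner software's background test on 3 or more of the 8 arrays, and of 12525 such genes 3611 differed between the doses at an adjusted p below 0.05 (limma with context as a block), which is 28.8%. Higher at 500 nM were 1229 genes (9.81%) and lower were 2382 (19%). Counts of called members in the gene lists below are to be read against these shares. The sign was the same in 4 of 4 contexts for 1217 of the genes called higher and 2340 of those called lower. Changes of at least 2-fold were fewer, 53 called genes up and 143 down. With 1 context left out, 2542 to 2918 genes were called, except that 1852 were without the reactivated Th2 pair. Within single contexts, with no test, 70 genes (0.559%) were at least 2-fold higher and 247 (1.97%) lower in unstimulated Th1 cells, and 179 (1.43%) and 396 (3.16%) in reactivated Th1 cells. In Th2 cells these numbers were 85 (0.679%) and 259 (2.07%) unstimulated and 94 (0.75%) and 244 (1.95%) reactivated. Reactivated Th1 cells thus had the most changes of this size, but no rise of this size was left there with either spike-in scaling, against 8197 and 11020 falls, and 17 rises and 2065 falls were counted after median centring.

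These differences are relative to the bulk of genes on each array, since loess centres every array. The spike-in RNA, added in known amounts to the samples, stood at -0.72 to -0.33 (log2, after loess) on the 50 nM arrays and at -0.42 to 0.90 on the 500 nM arrays. Its highest value was on the 500 nM array of reactivated Th1 cells, and the next highest was 0.05, on that of reactivated Th2 cells. Centring on the spike-ins moved the median of all genes from -0.06 to -0.56 and turned the split to 15 higher and 5330 lower. A spike-in shift after loess gave a median of -0.63, with 7 higher and 3570 lower, and centring on the median without loess gave -0.23, with 304 higher and 3816 lower. A rise reported here is thus a rise against other genes. Probes well above background in Cy3 made up 48.8% to 51.1% of all probes at 50 nM and 43.8% to 50.5% at 500 nM. In the reference channel, which holds the same kind of naive RNA on all arrays, no gene was called between the 500 nM and the 50 nM arrays (limma, 1288 genes at an unadjusted p below 0.05), although 2468 were called before the arrays' channels were set on a common scale. The SD between arrays in that channel was 0.18 (log2, median of 28 pairs). All 6 T cell markers (Cd3d, Cd3e, Cd3g, Cd4, Cd2 and Lck) were well above background on every array, Tbx21 was higher on every Th1 array (5.16 to 5.95) than on any Th2 array (-0.05 to 3.34), and Gata3 was higher on every Th2 array (1.59 to 3.06) than on any Th1 array (at most -0.22). The 4 arrays of Th1 cells were on 1 slide and the 4 of Th2 cells on another, so that cell type and slide cannot be told apart, while both doses of a context shared a slide. Dose went with position on the slide. In Th1 cells both 50 nM arrays were in row 1 and both 500 nM arrays in row 2, and in Th2 cells the 50 nM arrays were in columns 3 and 4 and the 500 nM arrays in columns 1 and 2 of row 1. Dose and position within a cell type cannot be told apart.

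Among the genes of JQ1's own pathway, Hexim1 rose in every context. It stood at -0.74 at 50 nM and 0.33 at 500 nM in unstimulated Th1 cells, at -1.29 and -0.10 in reactivated Th1 cells, at -0.07 and 0.99 in unstimulated Th2 cells and at -0.77 and 0.33 in reactivated Th2 cells. The difference was 1.11 on the log2 scale (SE 0.08, 95% interval 0.92 to 1.29, limma adjusted p = 0.000757), or 2.15-fold, and its range over contexts was narrow, from 1.06 to 1.20. With DMSO, Hexim1 was at -1.45 in unstimulated and -1.69 in reactivated Th1 cells, below both doses. The BET gene Brd2 rose by 0.82 (SE 0.11, adjusted p = 0.00222), from 0.28, 0.72, 0.22 and 0.41 at 50 nM to 1.17, 1.48, 0.74 and 1.53 at 500 nM in the same order of contexts. The values for Brd3 (-0.25, adjusted p = 0.0592) and Brdt (0.22, adjusted p = 0.0769) did not pass the test. The 3 probes of Brd3 ranged from -0.25 to 0.18. Of 7 genes of P-TEFb and its inhibitors, 2 rose and 1 fell, where 9.81% and 19% of all genes did. The median was 0.07 and was below 0 under the 3 other scalings. Mepce, which caps the 7SK RNA, rose by 0.61 (SE 0.09), and Larp7, which binds its end, fell by 0.55 (SE 0.14, adjusted p = 0.0228). The kinase gene Cdk9 was at -0.11 (interval -0.36 to 0.15) and was not called, nor were Ccnt1, Ccnt2 and Hexim2. In the super elongation complex and Mediator, 2 of 17 members rose and 3 fell, counts near the shares over all genes tested (9.81% and 19%), at a median of -0.11. Among these single members, Med24 fell most, by 0.71 (SE 0.09), and Med12 fell by 0.40 (other probe -0.15). Of these, 1 was called without the reactivated Th2 pair and 3 without the unstimulated Th1 pair. The values of the pair that rose, Ell3 at 0.45 and the Mediator kinase Cdk19 at 0.42, turned below 0 under 1 or both of the spike-in scalings.

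**Figure D1:**
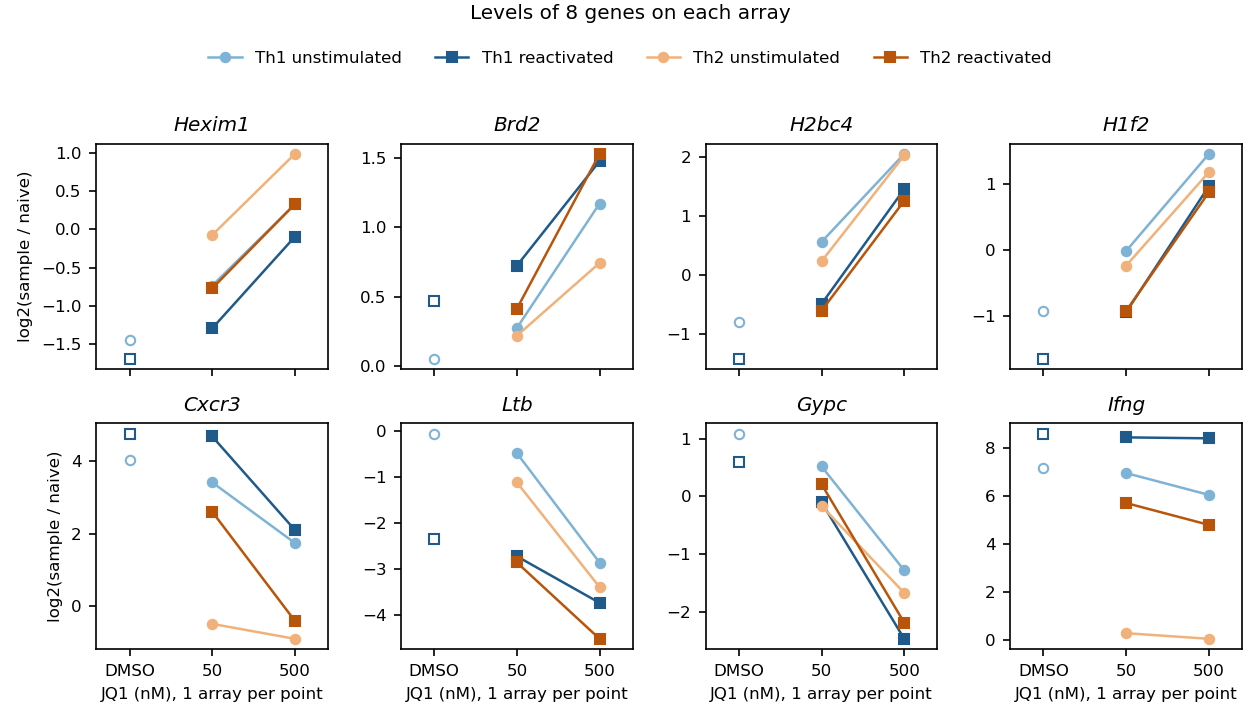
Levels of Hexim1, Brd2, H2bc4, H1f2, Cxcr3, Ltb, Gypc and Ifng as log2 ratios of sample to naive cells (vertical axis) at 50 and 500 nM JQ1, with the 6 hr DMSO arrays of Th1 cells as open symbols; each point is 1 array and lines join the doses of a context. The lines of the upper row all go up and those of Cxcr3, Ltb and Gypc all go down, while the Ifng lines stay within 0.91 of level in all 4 contexts.

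Histone genes were among the largest rises. H2bc4, an H2B gene, was at 0.56, -0.49, 0.23 and -0.61 at 50 nM in unstimulated Th1, reactivated Th1, unstimulated Th2 and reactivated Th2 cells, and at 2.05, 1.45, 2.02 and 1.25 at 500 nM. Every 500 nM array was above every 50 nM array, and the difference of 1.77 (SE 0.10, adjusted p = 0.000634), or 3.42-fold, was the largest rise among all genes tested. The linker histone gene H1f2 went from -0.01, -0.93, -0.23 and -0.92 to 1.46, 0.97, 1.18 and 0.88, a rise of 1.64 (SE 0.11). H2aw, an H2A gene outside the list of clustered histones, rose by 1.46 (SE 0.11). Of 42 replication-dependent histone genes tested, 15 rose and none fell, with a median of 0.18 against -0.06 over all genes tested, a median that was 0.02 after median centring and -0.30 and -0.39 with the spike-in scalings. H2ac18 rose by 0.99 (SE 0.08) and H2bc21 by 0.77 (SE 0.14). Replacement histones, which are made outside S phase, gave 4 rises in 9 genes and no fall, at a median of 0.38 that became -0.13 and -0.20 with the spike-in scalings. The members that rose were H3f3b at 1.09 (SE 0.09, 3 probes from 0.66 to 1.09), H3f3a at 0.73, H2az1 at 0.54 and H2ax at 0.38. Of these, H2ax was below 0 with both spike-in scalings and H2az1 with the shift after loess. Most replication-dependent histone mRNAs end without a poly(A) tail, on which the labelling kit primes, and members of these clusters are near-identical in sequence, so that signals of single members are uncertain. Of the 15 that rose, 12 had a promoter in the RefSeq table, and 9 of these held a TATA match, 10 a CCAAT match and 5 an octamer. Among 27 members that were not called, 25 had a promoter, with 15, 20 and 7 matches, so both groups held these elements more often than the 10058 promoters of all genes tested (15.3%, 40.7% and 1.48%). With 1 context left out, 10 to 14 of the replication-dependent genes were called.

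Other large rises were in genes of varied function. Hs3st6, a heparan sulfate sulfotransferase, rose by 1.64 (SE 0.08), with 1.55 to 1.73 over the contexts. Fam222a rose by 1.57 and Tubb3, a beta-tubulin best known from neurons, by 1.50. Tob1, an antiproliferative regulator of mRNA decay, rose by 1.40 (SE 0.17), Sat1, which acetylates polyamines, by 1.33 and Abcg1, a cholesterol exporter, by 1.28 (SE 0.20). All of Tob1, Sat1 and Abcg1 had their higher pair of values in the reactivated contexts. Shf, an adaptor protein, rose by 1.31 (other probe 0.96), the cold-inducible RNA-binding protein Cirbp by 1.31 and the ephrin ligand Efnb2 by 1.30. Among genes that were not well above background on all arrays, the largest rises were Trnp1 at 1.06, whose other probe gave 0.31, and the amino acid transporter Slc7a8 at 0.93.

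**Figure D2:**
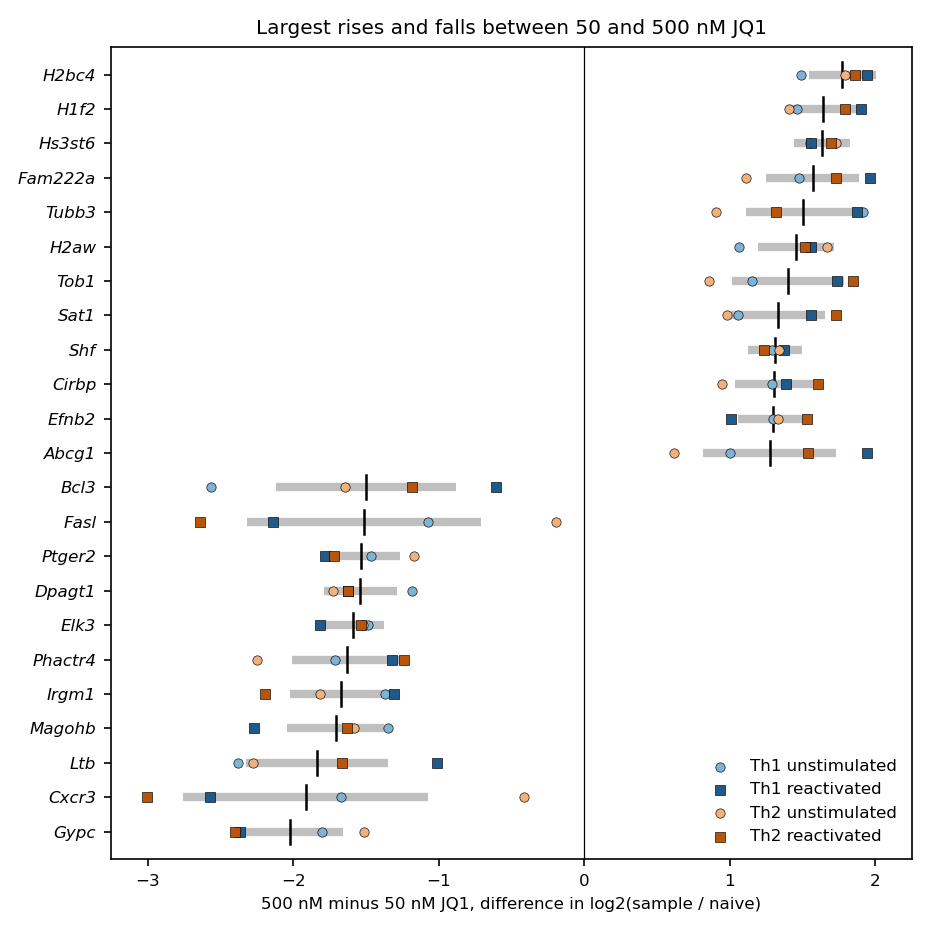
Dose effects of the 12 largest rises and 11 of the 12 largest falls among genes measured above background on all 8 arrays and with 1 sign in 4 of 4 contexts (horizontal axis: 500 nM minus 50 nM, log2); points are the 4 contexts, the black tick is their mean and the grey bar its 95% interval. The points of Cxcr3 spread most, from -3.00 to -0.41.

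Genes listed as early response genes, among them transcription factors and phosphatases, rose more often than they fell. The list also holds Klf2, which with DMSO was at -2.73 in unstimulated and -5.06 in reactivated Th1 cells. Of 33 tested, 14 rose and 1 (Egr2) fell, at a median of 0.37, or 0.11 after median centring and -0.21 with either spike-in scaling. Klf4 rose by 1.02 (SE 0.17), Jund by 0.90 (SE 0.09), Jun by 0.82 (SE 0.18) and Ier5 by 0.78 (SE 0.13, other probe 0.46). Jund had 0.76 to 1.05 in all contexts, whereas Jun ranged from 0.36 in reactivated Th2 to 1.47 in reactivated Th1 cells. Leaving out the reactivated Th2 pair left 9 calls.

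Heat shock and cold-inducible genes gave 6 rises in 16 and no fall, at a median of 0.17 that was -0.01 after median centring and -0.34 and -0.40 with the spike-ins. Beside Cirbp these included the chaperone Hspa1a at 0.76 (SE 0.11). They also included Dnajb1 at 0.44 and Dnaja1 at 0.41 (other probe 0.15), which were below 0 with the spike-ins. Only 2 members were called without the reactivated Th2 pair. In cholesterol synthesis 7 of 24 genes rose and 1 fell, at a median of 0.09 that was below 0 under the 3 other scalings. Tm7sf2 rose by 0.76 (SE 0.09, other probe 0.49). Dhcr7 rose by 0.53 and Insig1 by 0.49, and both were below 0 with the spike-ins. Without the unstimulated or the reactivated Th2 pair, 5 genes of this list were called. In cytokine feedback, Pim2 (0.60), Socs1 (0.55) and Pim1 (0.53) rose and Cish fell by 0.84 (SE 0.20), among 11 tested. Over all genes tested 9.81% rose and 19% fell. The list's median was 0.16, and it was below 0 under the 3 other scalings. Socs1 and Pim1 were below 0 with the spike-ins, and 2 members were called without either Th2 pair.

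The largest falls were in genes of varied function. Gypc, the membrane protein glycophorin C, was at 0.52, -0.10, -0.16 and 0.21 at 50 nM and at -1.28, -2.47, -1.67 and -2.19 at 500 nM, in the order of contexts used above. The doses did not overlap, and the fall of 2.02 (SE 0.16, adjusted p = 0.000757), or 4.06-fold, was the largest of all genes tested. Ltb, the lymphotoxin beta chain, went from -0.48, -2.72, -1.11 and -2.86 to -2.86, -3.73, -3.39 and -4.52, a fall of 1.83 (SE 0.21), or 3.56-fold. Its fall was 2.38 and 2.28 in unstimulated Th1 and Th2 cells and 1.01 and 1.66 in the reactivated ones. Falls of 1.71 for Magohb, of the exon junction complex, 1.63 for the phosphatase regulator Phactr4, 1.54 for Dpagt1, which starts N-glycan assembly, and 1.53 for the prostaglandin E2 receptor Ptger2 had SEs of 0.11 to 0.16. Elk3, an Ets factor, fell by 1.59 (SE 0.09), but its 3 probes ranged from -1.83 to -0.16. Irgm1, an interferon-inducible GTPase, fell by 1.67 with its brighter probe and was at -1.07 with the other. Of the dimmer genes, Il1rl1, the IL-33 receptor, fell by 1.88 (SE 0.23, other probe -0.79), and Fut7, which makes selectin ligands, fell by 1.33 (other probe -0.50). Il1rl1 is counted as a Th2 gene, yet its highest level on the 8 arrays, 4.55, was in reactivated Th1 cells at 50 nM. Over the 12 largest falls, the median of 50 nM against DMSO in Th1 cells was -0.57 unstimulated and -0.39 reactivated, and over the 12 largest rises it was 0.64 and 0.77. These values share the 50 nM arrays with the dose effect.

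Among Th1 effector genes, 11 of 25 fell and none rose, where 19% and 9.81% of all genes did, at a median of -0.52. With median centring, spike-in centring and the spike-in shift 20, 23 and 18 were called. Their medians were then -0.67, -0.99 and -1.09, against -0.23, -0.56 and -0.63 for all genes. Cxcr3, the receptor for interferon-induced chemokines, was at 3.41, 4.68, -0.48 and 2.60 at 50 nM and 1.74, 2.10, -0.89 and -0.40 at 500 nM. Its fall of 1.91 (SE 0.36, interval -2.75 to -1.07, adjusted p = 0.00771) was smallest in unstimulated Th2 cells (-0.41), where the gene stood below the naive level at both doses, and -1.67 to -3.00 in the others. Fasl, the death ligand, fell by 1.51 (SE 0.35) with the same pattern, -2.14 and -2.64 in the reactivated and -1.07 and -0.19 in the unstimulated contexts. Il18rap, a chain of the IL-18 receptor, fell by 1.28 (SE 0.20) and was below background on both 500 nM arrays of Th2 cells. Ifng was called lower by 0.52 (SE 0.16, adjusted p = 0.0437), with 6.95 and 6.04 in unstimulated Th1 cells, 8.44 and 8.40 in reactivated Th1 cells and 5.70 and 4.79 in reactivated Th2 cells, and it was not above background in unstimulated Th2 cells. Reactivated Th1 cells, with the highest Ifng level, thus had nearly the same value at both doses, and this call was lost under 11 of 22 alternatives. The Cy5 signal of the Ifng probe, which should reflect naive RNA alone, varied by 5.14 (log2) between the arrays. In Cy3 alone Ifng was lower by a mean of 0.89 at 500 nM, and in Cy5 by 0.37. Tbx21, which codes for T-bet, was not called (-0.64, interval -1.50 to 0.23). It was at 5.16 and 5.16 in unstimulated and 5.95 and 5.82 in reactivated Th1 cells, while in reactivated Th2 cells it went from 3.34 to 0.94.

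Of 17 Th2 effector genes, 5 fell and 2 rose, where 19% and 9.81% of all genes did, at a median of -0.26. Gfi1, a repressor that supports Th2 growth, fell by 0.90 (SE 0.10) with -0.70 to -1.14 in all contexts. Ccr4, a chemokine receptor of Th2 cells, fell by 0.87 (SE 0.12). Il4 fell by 0.87 (SE 0.21, adjusted p = 0.0204), from 3.08 to 1.67 in unstimulated and from 7.62 to 6.96 in reactivated Th2 cells, and was not above background in unstimulated Th1 cells. Gata3, the Th2 master regulator, was at -0.05 (interval -0.27 to 0.17), not called, with values of 1.61 and 1.59 in unstimulated and 2.89 and 3.06 in reactivated Th2 cells. Its sign turned when the unstimulated Th1 pair was left out. Of 13 growth factors and cytokines of activation, 8 fell and none rose, at a median of -0.48. The TNF family ligands Tnfsf8 and Tnfsf9 fell by 1.30 (SE 0.20) and 0.65, Il21 by 1.09 (SE 0.31) and Csf2 by 0.72. Csf2 was above background on 1 of the 4 unstimulated arrays, so that no unstimulated dose effect could be measured for it. The 0.72 thus includes contexts without signal, and the differences were -1.63 and -0.62 in reactivated Th1 and Th2 cells. The call of Csf2 was lost under 11 of 21 alternatives. Il2, the T cell growth factor, was at -0.32 (adjusted p = 0.0512), with 7.50 and 7.25 in reactivated Th1 and 7.11 and 6.71 in reactivated Th2 cells, and was not above background in unstimulated Th1 cells. The Cy5 signal of its probe varied by 2.57. In Cy3 alone Il2 was lower by a mean of 0.82 at 500 nM, and in Cy5 by 0.50. Without the reactivated Th2 pair 1 member of this list was called, without the reactivated Th1 pair 3, and without the unstimulated Th1 pair 5.

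Of 22 costimulatory and inhibitory receptors, 14 fell and none rose, at a median of -0.54. Btla, an inhibitory receptor, was at -2.34, -2.04, -3.47 and -2.27 at 50 nM and at -4.04, -3.48, -4.44 and -3.60 at 500 nM, a fall of 1.36 (SE 0.12). The doses did not overlap, although the highest value at 500 nM (-3.48) lay just below the lowest at 50 nM (-3.47). Cd6 fell by 1.12 (SE 0.10, other probe -0.49), Tnfrsf18, the activating receptor GITR, by 1.05 (SE 0.17) and Havcr2, which codes for Tim-3, by 1.07 (SE 0.33), although Havcr2 differed by 0.26 in unstimulated Th2 cells, where it was not above background. The call of Havcr2 was lost under 11 of 22 alternatives. Without the reactivated Th2 pair 8 of the list were called. Of 25 genes of the T cell receptor complex and its signalling, 9 fell and none rose, at a median of -0.26. With median centring, spike-in centring and the spike-in shift 16, 20 and 14 of them were called. The kinase gene Lck fell by 1.13 (SE 0.13), the phosphatase Ptpn6 by 0.91, the adhesion receptor Cd2 by 0.86 and the kinase Prkcq by 0.82. Of 21 cytokine receptor chains and STATs, 10 fell and 2 rose, at a median of -0.32. Il7r, needed for survival of resting T cells, fell by 1.24 (SE 0.28), from -1.63 to -3.68 in unstimulated Th1 and -1.80 to -3.70 in unstimulated Th2 cells but by only 0.38 and 0.64 in the reactivated ones. Il21r fell by 1.12, Il12rb1 by 0.58 (other probe -0.32) and the interferon receptor chain Ifnar2 by 0.57. Leaving out the unstimulated Th1, unstimulated Th2 or reactivated Th2 pair left 7, 6 or 7 calls in this list. Of 16 chemokine and homing receptors, 7 fell and none rose, at a median of -0.36, among them Ccr6 by 0.95 and Cxcr5 by 0.79. The list's median was 0.07 in reactivated Th1 and -0.31 in reactivated Th2 cells. In unstimulated Th1 and Th2 cells it was -0.45 and -0.54. With each of the 3 other scalings 11 members were called. That list also holds Gypc, which is not a receptor of this kind, and without it 6 of 15 fell. Ccr6 was above background on 1 of the 4 arrays at 500 nM. Without the unstimulated Th2 pair 4 of these were called.

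Markers of B cells moved with the dose as well. Cd79b and Ms4a1 were above background on all 8 arrays, Pax5 on 1 and Cd79a on 6, and the summed Cy3 level of these 4 markers was 9.65 to 11.99 at 50 nM and 9.04 to 11.3 at 500 nM (log2). It was lower at 500 nM in 4 of 4 contexts, by 0.64 on average. Ms4a1 fell by 1.20 (adjusted p = 0.00156) and Cd79b by 0.50, while the summed level of the 6 T cell markers was lower by 0.53 on average. The part of such cells in the falls of receptors and Ltb was not tested. In bulk samples, fewer cells of a type and less RNA per cell cannot be told apart. Of 4 NK markers, Ncr1 and Klrb1c were above background on 0 arrays, Klra8 on 1 and Eomes, which T cells can express too, on 7. Their summed level was 8.18 to 11.1 at 50 nM and 8.14 to 10.2 at 500 nM, and it was lower by 0.93 in reactivated Th1 and 0.51 in reactivated Th2 cells. Of 7 myeloid and dendritic markers, Csf1r and Itgam were above background on all 8 arrays and Lyz2 and S100a8 on 0, and Csf1r rose by 0.31 (adjusted p = 0.0371). Their summed level was 13.6 to 14.2 at 50 nM and 13.6 to 14.05 at 500 nM. Of the red cell markers, Hba-a1 was above background on all 8 arrays, at a difference of 0.27 (adjusted p = 0.0889), and Alas2 on 0. Of 3 Th17 markers, Il17f was above background on 6 arrays, Il23r on 2 and Il17a on 1, and their summed level (7.64 to 10.74 at 50 nM and 7.69 to 10.02 at 500 nM) was lower by 1.12 in reactivated Th1 and 0.72 in reactivated Th2 cells. The CD8 T cell markers Cd8b1 and Cd8a were above background on 6 and 3 arrays, and their summed level (7.42 to 8.20 at 50 nM and 7.26 to 7.88 at 500 nM) was lower in 4 of 4 contexts, by 0.15 to 0.32. That of the regulatory T cell markers Foxp3 and Ikzf2, above background on 4 and 3 arrays, differed by -0.25 to 0.18. The part of these cells in the results was not tested.

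**Figure D3:**
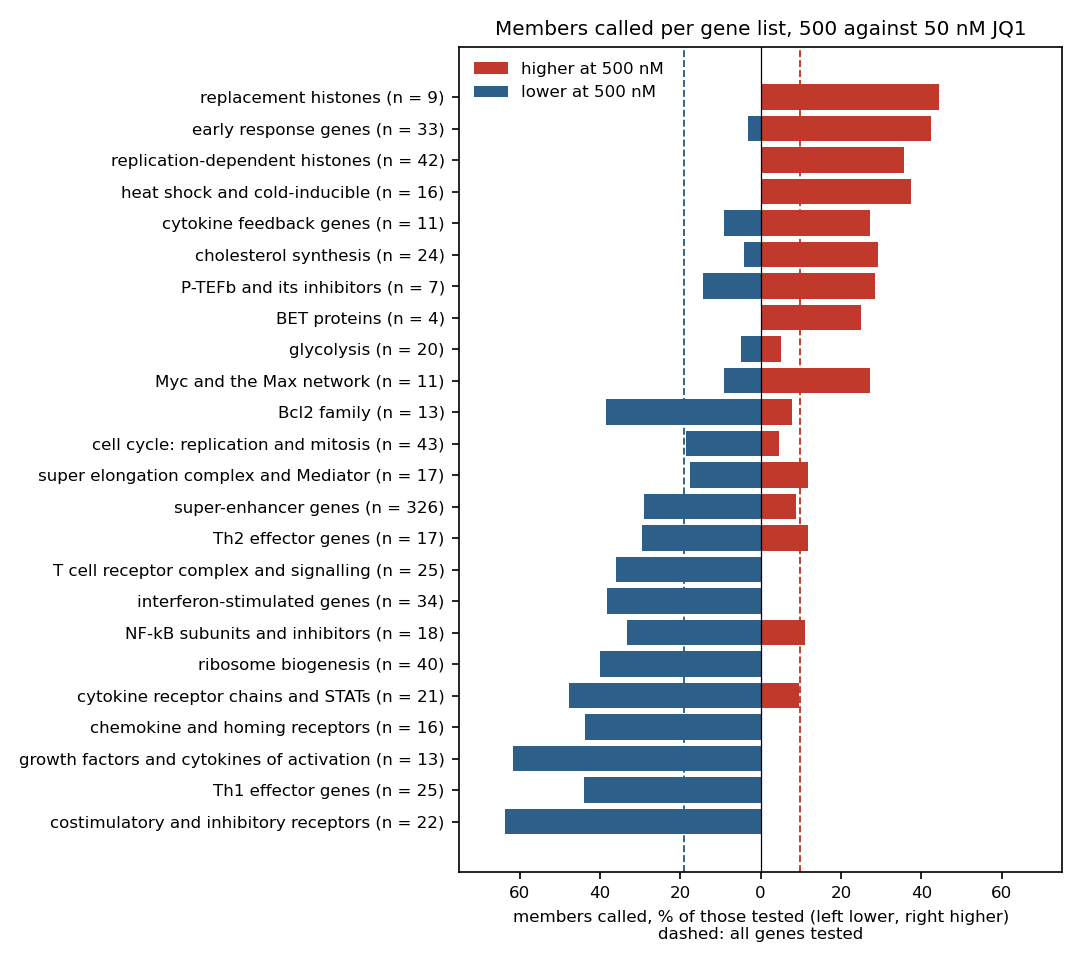
Share of tested members called lower (left, blue) and higher (right, red) at 500 nM for 24 gene lists, ordered by median dose effect, with the share over all genes tested as dashed lines (9.81% higher, 19% lower). Replacement histones, early response genes and replication-dependent histones are at the top with 4 of 9, 14 of 33 and 15 of 42 rises, and costimulatory and inhibitory receptors at the bottom with 14 of 22 falls.

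NF-kB subunits and inhibitors gave 6 falls and 2 rises in 18, where 19% and 9.81% of all genes fell and rose, at a median of -0.30. With median centring, spike-in centring and the spike-in shift 12, 13 and 10 were called. Bcl3, an atypical inhibitor that acts with NF-kB in the nucleus, was at 1.17, -1.08, -2.17 and -1.37 at 50 nM and at -1.40, -1.68, -3.81 and -2.55 at 500 nM. Its fall of 1.50 (SE 0.27, adjusted p = 0.00608) ranged from 0.61 in reactivated to 2.56 in unstimulated Th1 cells. Traf1 fell by 0.99 (SE 0.23), Birc3 by 0.63 and Relb by 0.59, and all 3 fell least in reactivated Th1 cells, at -0.08 for Traf1 and Relb and -0.34 for Birc3. Without the reactivated Th2 pair 3 members were called, and 5 without either unstimulated pair. In the promoters of the 11 Th1 effector genes that fell, 1, that of Ltb, held an NF-kB match, against 10.6% of promoters of genes tested. Of 13 Bcl2 family genes, 5 fell and 1 rose, where 19% and 9.81% of all genes did, at a median of -0.04 against -0.06 for all genes. With median centring, spike-in centring and the spike-in shift the list's median was -0.30, -0.63 and -0.62. That of all genes was then -0.23, -0.56 and -0.63. The members that fell included both pro-death Bak1 (0.88, SE 0.08) and pro-survival Bcl2l1 (0.81, SE 0.12, other probe -0.56) and Bcl2a1d (0.79). The 1 that rose was the pro-death Bcl2l11 (0.79, SE 0.13), which codes for Bim. Bcl2a1d belongs to a family of near-identical copies, and the Cy5 signal of its probe varied by 1.30 between arrays.

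Myc itself was not called. It stood at -0.44 and -0.40 in unstimulated Th1 cells, -1.65 and -1.66 in unstimulated Th2 cells, 2.28 and 1.81 in reactivated Th1 cells and 2.85 and 2.33 in reactivated Th2 cells at 50 and 500 nM. The dose effect was -0.24 (interval -0.52 to 0.04, adjusted p = 0.172), made up of -0.47 and -0.52 in the reactivated contexts and 0.04 and -0.01 in the unstimulated ones, and the difference between states did not pass its test (-0.51, adjusted p = 0.185). Of 11 genes of Myc and the Max network, 3 rose and 1 fell, where 9.81% and 19% of all genes did. The median was about 0, and it was -0.20, -0.53 and -0.57 with median centring, spike-in centring and the spike-in shift. Mlxipl, the glucose-responsive factor ChREBP, rose by 1.06 (SE 0.10), the Myc antagonists Mxd4 by 0.60 and Mxd1 by 0.55 (other probe 0.19), and Mnt fell by 0.34. Mxd4 did not rise in unstimulated Th2 cells (-0.04), nor did Mxd1 in unstimulated Th1 cells (-0.09). The call of Mxd4 was lost under 12 of 23 alternatives. Mxd1 was below 0 with the spike-ins, and its call was lost under 13 further alternatives. Leaving out any 1 context left 1 or 2 calls in this list.

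Many genes for making ribosomes are known targets of Myc. Of 40 tested, 16 fell and none rose, at a median of -0.31, and the medians by context were -0.63 in reactivated Th1 and -0.50 in reactivated Th2 cells against -0.10 and 0.02 in the unstimulated ones. Gar1, of the small nucleolar particles that modify rRNA, fell by 1.03 (SE 0.10), Pes1 by 0.86 (SE 0.11, other probe -0.28), Ltv1 by 0.79 and Utp20 by 0.71. Utp20 had -1.31 and -0.99 in the reactivated and -0.19 and -0.35 in the unstimulated contexts, while Gar1 fell by at least 0.86 in all 4. With the reactivated contexts alone 31 members were called and with the unstimulated alone 6, both subsets being chosen after seeing the data. Over all genes tested, the same fits called 3373 and 2396. Without the reactivated Th1 or Th2 pair 7 and 4 members were called. For no member did the difference between states pass the test over all genes, at a median of -0.55. In cell cycle genes, 8 of 43 fell and 2 rose, where 19% and 9.81% of all genes did, at a median of -0.09. Ccnb1 (-0.67, SE 0.12, 3 probes from -0.67 to -0.17), Bub1b (-0.63) and Cdk6 (-0.63) were lower and the inhibitor Cdkn1b higher (0.75, SE 0.16). With median centring, spike-in centring and the spike-in shift 15, 25 and 11 members were called. Without the reactivated Th2 pair 1 was called, and 5 without the unstimulated Th1 pair.

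**Figure D4:**
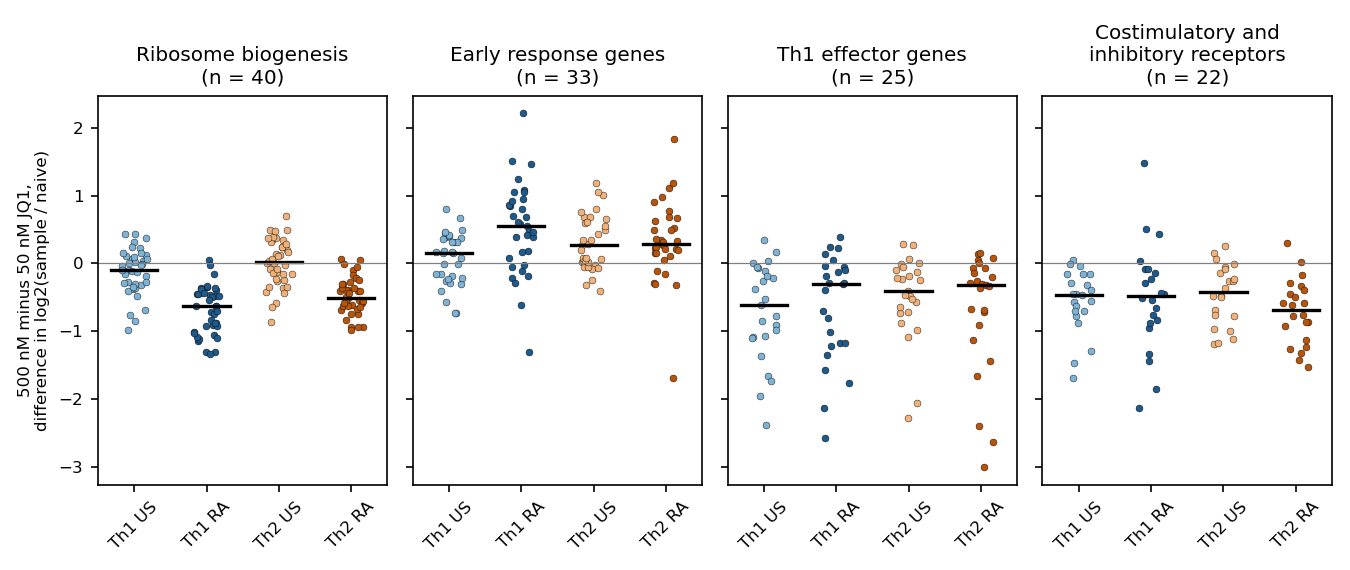
Dose effects (500 nM minus 50 nM, log2) of every tested member of 4 gene lists in each context, where US is unstimulated and RA reactivated; points are genes and the black bar is their median. The ribosome biogenesis medians are -0.63 and -0.50 in the reactivated contexts and -0.10 and 0.02 in the unstimulated ones, and the early response median is highest in reactivated Th1 cells (0.55).

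Interferon-stimulated genes gave 13 falls in 34 and no rise, at a median of -0.29. With median centring, spike-in centring and the spike-in shift 22, 29 and 20 were called, at medians of -0.54, -0.87 and -0.86. The guanylate-binding proteins Gbp5 and Gbp3 fell by 1.28 (SE 0.24) and 1.08 (SE 0.16), and Isg20 by 1.03, beside Irgm1. The dose effect of Gbp5 was -2.22 in unstimulated Th1 cells, from 3.64 to 1.42. It was -0.40 in reactivated Th1 cells, from 1.21 to 0.80. The list's median was 0.07 in reactivated Th1 cells against -0.47, -0.39 and -0.62 elsewhere. Of 20 glycolysis genes 1 rose (Ldhb, 0.67) and 1 fell (Hk1, 0.40), a lower share than in any other list, at a median of 0.05 that was below 0 under the 3 other scalings. Of 472 genes that the study lists as nearest to T-bet super-enhancers of mouse Th1 cells, mapped by chromatin immunoprecipitation, 326 could be tested, and 95 fell and 29 rose, where 19% and 9.81% of all genes tested did, at a median of -0.14 against -0.06 for all genes. Cxcr3 and Il1rl1 fell most in that list, followed by Sla, an adaptor that dampens receptor signalling, which fell by 1.35 (SE 0.23). Of these, 65 were called without the reactivated Th2 pair.

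The dose effect itself was compared between reactivated and unstimulated cells. The difference was called for 102 genes (0.814% of those tested), with 44 of them higher (0.351%) and 58 lower (0.463%) in reactivated cells. Of these, 79 were above background on all 8 arrays and 8 were below background on all 4 unstimulated arrays. In 46 the sign was opposite in both pairs of contexts. Klf2, a factor that keeps T cells quiescent and circulating, was at -2.15 and -1.66 in unstimulated Th1 and -1.09 and -1.35 in unstimulated Th2 cells, but went from -4.36 to -2.15 in reactivated Th1 and from -4.37 to -2.54 in reactivated Th2 cells. The difference of effects was 1.90 (SE 0.25, adjusted p = 0.0267). Ccr7, the receptor that guides cells into lymph nodes, had 1.34 and 0.87 in reactivated and -1.05 and -0.42 in unstimulated contexts, a difference of 1.84 (SE 0.25), and Vldlr, a lipoprotein receptor, gave 1.75 (SE 0.28), with -1.83 and -0.95 in the unstimulated and 0.16 and 0.56 in the reactivated contexts. In the opposite direction, Bdh2, a dehydrogenase, fell from 5.61 to 1.94 and from 5.19 to 2.67 in reactivated Th1 and Th2 cells and was at most 0.40 in the unstimulated ones, where it was above background on 1 of 4 arrays. The ion channel Trpm6 (-2.21) and the receptor tyrosine kinase Mst1r (-1.90) were below background on all 4 unstimulated arrays, so that no unstimulated effect, and no difference between states, could be measured for them or for Bdh2, whose value was -2.94. With both spike-in scalings no gene was called higher in reactivated cells, against 171 and 47 called lower, and the differences of Klf2 (1.03 and 1.096), Ccr7 (0.94 and 1.03) and Vldlr (1.08 and 0.95) were not called. These calls moved with the processing. In limma no gene was called with the software's log ratio, without background correction or with a smaller normexp offset (1420 to 1763 at an unadjusted p below 0.05), and 3 were called without the reactivated Th1, 22 without the reactivated Th2, 54 without the unstimulated Th2 and 64 without the unstimulated Th1 pair.

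**Figure D5:**
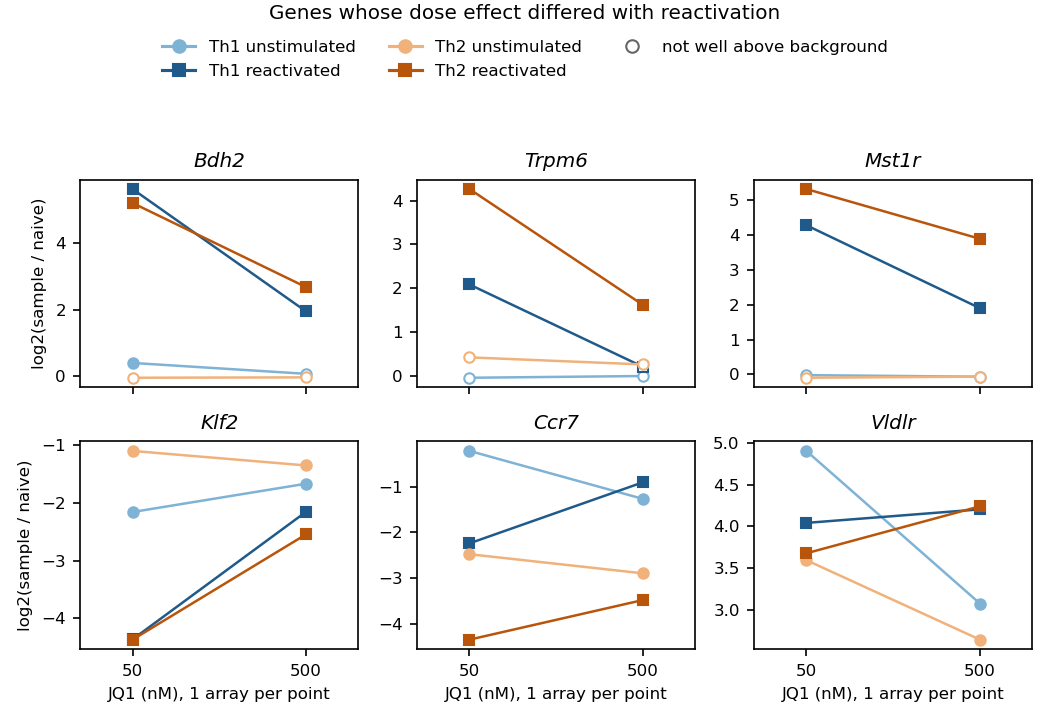
Levels (log2 ratio of sample to naive cells, vertical axis) of 6 genes named for the largest values of the difference in dose effect between reactivated and unstimulated cells, at 50 and 500 nM JQ1; each point is 1 array and open points were not well above background. Bdh2, Trpm6 and Mst1r fall in the reactivated contexts (dark squares) and lie near 0 in the unstimulated ones, while Klf2 and Ccr7 go up in the reactivated contexts.

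Between Th1 and Th2 cells, no difference of the dose effect was called in limma, with 270 genes at an unadjusted p below 0.05, and 15 were called when the difference between states was fitted beside it. No gene passed when 1 context was left out either, with 145 to 952 at an unadjusted p below 0.05. For Tbx21 the effect in Th1 minus that in Th2 cells was 1.14 (SE 0.69, limma adjusted p = 0.999). A p that misses the threshold does not show that both cell types responded alike, and slide and cell type cannot be told apart here.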

How the data were processed

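Gene expression was measured on 2-colour Agilent microarrays, 1 array per condition, with sample RNA in Cy3 and naive T cell RNA in Cy5. Per the file headers, the authors scanned the arrays and extracted spots with Agilent Feature Extraction 10.7.1.1, and the deposited intensity values used here are the median brightness per spot and dye and that of the area around it, beside flags for spots well above background, saturated or non-uniform. The same deposited files hold a log10 ratio of Cy5 over Cy3, which that software had background-subtracted and dye-normalized. A value table deposited for the series gives 34710 probes as log2 ratios made by the authors, and how they were normalized is not given in the sources used here. Its columns matched the scanner values used here at r = 0.988 to 0.994 and a slope of 1.00 to 1.03 on the 8 JQ1 arrays, so its scale is log2 and its direction is sample over reference.

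Samples were grouped by their labels. For the 8 JQ1 arrays and, as a description, DMSO arrays, median intensities were background-corrected by normexp with an offset of 50 and normalized within arrays by loess in limma 3.58.1 (R 4.3.3), control and outlier spots being left out. Spots of a probe were averaged. Of 55681 probes, 26437 had 1 gene symbol, through their RefSeq accession or, for 12, the name in the files, and gave 20028 symbols; 29244 had none, 16194 of which the files identify by mm9 position only, and the brightest probe stood for a gene. Genes with Cy3 well above background on at least 3 of 8 arrays were tested with lmFit and eBayes, with context as a block (3 residual degrees of freedom), and p-values were adjusted by Benjamini and Hochberg over all 12525 genes and called below 0.05. The differences of the dose effect between states and between cell types were contrasts of such fits (2 residual degrees of freedom). Because no label says that contexts came from separate cultures or animals, p-values measure the spread between these arrays. Repeated spots varied by an SD of 0.11 to 0.13 (log2), and the number of arrays limits the precision.

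On simulated data with 200 changed genes among 12525, 100% of the 2-fold and 100% of the 4-fold changes were recovered for the dose effect, with 15 false calls. For the difference between states these shares were 75% and 100%, and for that between cell types 74% and 99%. These shares hold for that setting alone, with 200 changed genes, whereas 3611 genes were called in the data. There, Klf2 ranged from -0.25 to 2.21 over the contexts. Its mean of 1.07 (log2, limma adjusted p = 0.061) was above 2-fold and was not called. The genes named are the 12 largest rises and 12 largest falls with 1 sign in 4 of 4 contexts and signal on all 8 arrays, the 2 largest each way among dimmer genes, up to 4 called members of each of 24 gene lists, key regulators, and the 3 largest each way of the difference between states. Egr2 and the markers of other cell types were named outside this rule, after their values were seen. Some genes are not reported here. Members and lists were chosen with earlier results of these data known. Alternatives were other centrings, including on 10 spike-in probes, the software's log ratio, the deposited table, Cy3 alone, other background corrections, filters, probe rules and blocks, subsets of contexts, and leaving out each context. Promoters were the RefSeq sequences of GRCm38.p6 and are not tied to the probes' build.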

Additional observations from a re-analysis of the deposited data

Results flagged for a closer look

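In 3 genes 1 context stood far from the others in its 500 nM minus 50 nM difference (log2). Tbx21 was at -2.40 in reactivated Th2 cells against -0.13 to 0.00 elsewhere. Elk3 was at -1.82 in reactivated Th1 cells against -1.53 to -1.48, and Trnp1 at 0.51 there against 1.19 to 1.32. Such a gap was looked for in 41 sets of 4 differences, and chance gives about 1 in 20.

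The dose effect differed between reactivated and unstimulated cells (limma, difference of effects) by 1.90 for Klf2, 1.84 for Ccr7 and 1.75 for Vldlr, and by -2.94 for Bdh2, -2.21 for Trpm6 and -1.90 for Mst1r. Trpm6 and Mst1r were below background on all 4 unstimulated arrays and Bdh2 on 3 of them, so that these 3 values are falls in reactivated cells and no measured difference between states. With the spike-in scalings the differences of Klf2, Ccr7 and Vldlr were 0.94 to 1.096 and were not called. Cdk9 was lower in both reactivated and higher in both unstimulated contexts, a difference of -0.40 (limma, adjusted p = 0.307).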

How the results depend on the processing

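The number of genes called between the doses was 2977 to 5345 under the other centrings, signals, background corrections, filters and random block and with DMSO arrays in the fit, against 3611. It was 5522 when every probe was tested, 17 without the context block, and 444 with Th1 and 1304 with Th2 contexts alone. It was 2396 with the unstimulated and 3373 with the reactivated contexts alone (both chosen after seeing the data), and 1852 to 2918 with 1 context left out. No gene of the 3611 was called in the other direction under any of these, the fit of every probe apart, where this was not counted, but 806 of them turned sign with spike-in centring, 832 with the spike-in shift, 14 with median centring and 13 with the software's log ratio. For the difference between states, 171 genes were called with spike-in centring and 47 with the spike-in shift, all of them lower in reactivated cells, 36 with the deposited table, 52 with Cy3 alone, 23 with the mean of probes, 161 with trend and robust eBayes, 160 with DMSO arrays added, 3 to 64 with 1 context left out and 528 when both differences were fitted together, against 102. It was 0 with the software's log ratio, without background correction and with an offset of 10. For the difference between cell types the joint fit called 15 genes, against 0. The reference channel gave 2468 calls before the channels were set on a common scale and 0 to 1 with 1 context left out, against 0.

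Changes of 2-fold or more in unstimulated Th1 cells numbered 584 with median centring, 727 with spike-in centring, 727 with the spike-in shift and 1152 with the software's log ratio, against 317. In reactivated Th1 cells they numbered 2082, 8197, 11020 and 1673 in that order, against 575. In reactivated Th2 cells they numbered 1577 with spike-in centring, 1715 with the shift and 1141 with the software's ratio, against 338, and in unstimulated Th2 cells 1077 with the software's ratio, against 344.

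With spike-in centring and the spike-in shift after loess, in that order, the dose effect was -0.17 and -0.15 for Cdk19, -0.035 and -0.041 for Dhcr7, -0.14 and -0.16 for Dnaja1, -0.13 and -0.13 for Dnajb1 and -0.22 and -0.20 for H2ax. It was -0.059 and -0.079 for Insig1, -0.053 and -0.022 for Mxd1, -0.084 and -0.043 for Pim1, -0.060 and -0.024 for Socs1 and -0.34 and -0.39 for Ccr7. With the shift it was -0.12 for Ell3 and -0.028 for H2az1. Among the named genes, other signs that turned were those of effects that had not been called. Ccr7 was at -0.010 with median centring, -0.74 with unstimulated contexts alone and -0.20 to 0.60 with 1 context left out. Gata3 was at 0.075 with Th2 and 0.026 with reactivated contexts alone and at -0.13 to 0.011 with 1 context left out. Cdk9 was at 0.092 and Myc at 0.015 with unstimulated contexts alone, Cdk9 was at -0.19 to 0.00026 with 1 context left out, and Vldlr was at 0.36 with reactivated contexts alone. The cause of these shifts was not tested. Spike-in scalings rest on 10 probes and move all genes of an array together, and fits with 1 context left out have fewer arrays. Signal near background limits genes such as Csf2, Il4 and Ccr6, and no spot was saturated. The doses were paired by context, and the labels carry no replicate numbers.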
